A study of Mus musculus with 3 samples.

Results

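Neurod1, Neurod2, Neurod6, Tbr1, Bcl11a, Bcl11b, Fezf2 and Emx1 encode transcription factors of pyramidal neurons, the glutamatergic projection neurons of cortex and hippocampus. They were taken by symbol, and all 8 were found once among the 47593 gene rows. The samples were 3 libraries of wild-type (WT) mouse primary neurons from the hippocampus, replicates 1 to 3 of 1 group. The culture medium was Neurobasal supplemented with B27 (10%) and GlutaMAX (1%), under 5% CO2 and at 37 °C, and the cells then received fresh medium containing B27 and penicillin-streptomycin. The series design names 24 h of treatment and a second arm given apoE particles; that arm was not analysed here and treatments were not compared. The labels used here state neither the animals' age nor whether each library had its own culture, so p-values measure only the spread between these libraries, part or all of which may be technical.

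These factors act in sequence as dorsal forebrain progenitors give rise to projection neurons. Emx1 is a homeobox gene of the dorsal progenitors and their descendants. NeuroD factors are basic helix-loop-helix (bHLH) proteins that pair with E proteins, bind the E-box and promote and maintain neuronal differentiation. Tbr1, a T-box factor, and the zinc finger factors Fezf2 and Bcl11b (CTIP2) are best known for dividing deep-layer cortical neurons into corticothalamic and subcerebral types; Bcl11b is also made in CA1 and the dentate gyrus of the hippocampus, and in interneurons. Bcl11a (CTIP1) is the close relative of Bcl11b.

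Recovered reads, the whole reads behind the deposited log2 values, numbered 18780576, 18683962 and 18885652 in replicates 1, 2 and 3. Levels in CPM are recovered reads per 1000000, and those per kilobase are divided by the summed length of all annotated exons; both are given as mean ± SD (n = 3). All 8 genes lay at 1 CPM or more in every library, here called detected, against 29.4% of all gene rows (28.7% by recovered reads) and 59.2% of protein coding genes. Together they held 0.105% ± 0.0007 of the summed deposited expression (SD, n = 3). In recovered reads the share was 0.105% ± 0.0019, and Neurod6 alone supplied 38.5% of the 8 genes' reads.

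The 3 NeuroD genes held both the highest and the lowest level per kilobase among the 8. To show the E-box, the sequence element NeuroD factors bind, bases from the 250 before their RefSeq start sites follow (GRCm38.p6, minus strand, 5′ to 3′). Bases inside an annotated exon are left out, and capitals mark each CANNTG match. For Neurod1 this removed the 149 bases next to the start site, and for Neurod2 3 bases.
Neurod6, chr6:55681264-55681513: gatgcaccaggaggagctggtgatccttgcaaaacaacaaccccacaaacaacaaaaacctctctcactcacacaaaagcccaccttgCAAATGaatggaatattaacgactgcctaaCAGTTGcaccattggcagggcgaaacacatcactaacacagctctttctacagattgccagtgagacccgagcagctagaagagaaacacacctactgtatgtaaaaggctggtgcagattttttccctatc
Neurod2, chr11:98329649-98329895: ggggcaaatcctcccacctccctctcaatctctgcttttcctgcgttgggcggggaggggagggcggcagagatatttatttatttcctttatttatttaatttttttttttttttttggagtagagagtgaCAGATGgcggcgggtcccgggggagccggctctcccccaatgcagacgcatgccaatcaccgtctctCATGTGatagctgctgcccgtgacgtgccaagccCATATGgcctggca
Neurod1, chr2:79456786-79456886: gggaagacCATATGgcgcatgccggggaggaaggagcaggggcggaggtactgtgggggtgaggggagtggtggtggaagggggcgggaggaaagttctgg
In the full 250 bases before the start site, Neurod2 had 3 matches, Neurod6 had 2 and Neurod1 had 1. CANNTG reads the same on both strands in its fixed letters, and 66.2% of the 32851 RefSeq promoters of that length held it, as did 6 of the 8 genes; Bcl11b and Fezf2 had none in this window. The version with an AT centre, CATATG, stood before Neurod1 and Neurod2 and in 3.46% of all these promoters. CAGATG stood before 1 of the 8 genes, Neurod2, and in 14.4% of promoters, and CAGCTG before 0 of the 8 and in 13.0%. The counts include annotated exon bases, which fill the whole window of Tbr1 and Emx1. Such bases make up 188 of the 250 for Bcl11b, 149 for Neurod1, 94 for Fezf2, 25 for Bcl11a and 3 for Neurod2. A match of these letters is a description and does not show binding.

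Neurod6, a factor of postmitotic pyramidal neurons (chromosome 6, 55677822 to 55681263, minus strand, 2 exons), had 7434, 7778 and 7665 reads in replicates 1, 2 and 3. The deposited log2 values were 12.87, 12.92 and 12.90. Its level of 406 ± 10.2 CPM, or 189 ± 4.76 CPM per kilobase, exceeded that of 98.9% of the 13504 detected genes with an annotated length. Per kilobase it ranked 1 of 88 transcription factor genes in the lists described here. In CPM, Mef2c (589 ± 3.24) and Zbtb18 (540 ± 4.42) lay above it.

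Neurod2, which supports synapse formation and survival of cortical neurons (chromosome 11, 98325415 to 98329648, minus strand, 2 exons), had 1924, 1767 and 1980 reads. The deposited log2 values were 10.89, 10.85 and 10.91, with replicate 2 lowest. Per kilobase it reached 32.02 ± 1.71 CPM. Neurod6 exceeded it 5.83-fold (log2 difference 2.54 ± 0.11 in reads).

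Neurod1, a factor of newborn neurons, also known for the dentate granule cell lineage, was the lowest of the 3 NeuroD genes among the 8 (chromosome 2, 79452521 to 79456751, minus strand, 2 exons). It had 379, 405 and 433 reads and deposited log2 values of 8.65, 8.66 and 8.68. At 7.91 ± 0.50 CPM per kilobase it lay at percentile 57.0 of detected genes. Neurod6 exceeded it 22.5-fold and Neurod2 exceeded it 3.87-fold per kilobase, each in 3 of 3 libraries. Of its 2729 exon bases, 201 are also exon of Cerkl on the same strand (20 reads in all) and 154 of the noncoding Gm26755 on the opposite strand (2 reads in all). Reads on shared bases may have been dropped or given to either gene, since no counting settings are stated in the labels. Neurod2 and Neurod6 shared no stretch of 50 bases with transcripts of other genes.

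Tbr1 and Fezf2 lay close together per kilobase. Tbr1, which marks early-born deep-layer and Cajal-Retzius neurons (chromosome 2, 61802930 to 61814114, plus strand), had 1983, 1794 and 1950 reads and deposited log2 values of 10.92, 10.87 and 10.91. Its level was 102 ± 4.99 CPM, or 18.5 ± 0.91 CPM per kilobase. Fezf2, the selector of subcerebral projection neurons (chromosome 14, 12342094 to 12348189, minus strand), had 1204, 1195 and 1281 reads and deposited log2 values of 10.25, 10.25 and 10.28. It reached 65.3 ± 2.19 CPM, or 21.4 ± 0.72 CPM per kilobase. Tbr1 therefore had more reads, but Fezf2 stood 1.15-fold higher per kilobase (log2 ratio of Tbr1 over Fezf2 −0.21 ± 0.07 in reads), in 3 of 3 libraries.

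Emx1, the homeobox gene (chromosome 6, 85187438 to 85204462, plus strand) had 400, 326 and 372 reads and deposited log2 values of 8.53, 8.49 and 8.52. Replicate 1 was highest and replicate 2 lowest, a 1.21-fold range after scaling by size factors and the widest of the 8. Its level was 19.5 ± 1.93 CPM, or 8.92 ± 0.89 CPM per kilobase.

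Tbr1, Fezf2 and Emx1 each stood above its closest paralog. Eomes (Tbr2), the T-box factor of intermediate progenitors, had 302 reads in all, and Tbr1 exceeded it 10.6-fold per kilobase. The third gene of that T-box group, Tbx21, had 22 reads. Fezf1 had 13 reads, and Fezf2 exceeded it by 5.20 ± 0.02 on the deposited log2 scale with a pseudocount of 0.5, or 5.21 ± 0.20 in reads, a scale that understates the distance from so low a gene. Emx2 had 396 reads, and Emx1 exceeded it 3.32-fold per kilobase (log2 ratio 1.73 ± 0.19 in reads).

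The paralogs Bcl11a and Bcl11b were the next genes after Neurod6 by reads. Bcl11a (chromosome 11, 24078056 to 24174123, plus strand) had 3436, 3243 and 3538 reads and deposited log2 values of 11.74, 11.70 and 11.76. Bcl11b (chromosome 12, 107910403 to 108003602, minus strand) had 2989, 2843 and 3042 reads and deposited log2 values of 11.53, 11.51 and 11.55. Both genes were lowest in replicate 2 and highest in replicate 3, and their ranges did not overlap. Together they supplied 32.2% of the 8 genes' reads.

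Which of the Bcl11 pair is higher depended on the length used. Bcl11a lay at 181 ± 7.03 CPM and Bcl11b at 157 ± 4.69 CPM without length scaling. Over all annotated exons, 13175 bases for Bcl11a and 8111 for Bcl11b, the levels were 13.8 ± 0.53 and 19.4 ± 0.58 CPM per kilobase, so that Bcl11b was 1.40-fold higher (log2 ratio 0.48 ± 0.01 in reads). The longest annotated transcript of Bcl11a has only 5989 bases, and scaled by longest transcripts Bcl11b over Bcl11a was −0.63 on the log2 scale. The deposited values hold 1 number per gene and do not show which transcripts were present. The noncoding 4930538E20Rik on the opposite strand shares 316 exon bases with Bcl11a and had 17 reads in all, and Gm12064, antisense within the gene, had 5.

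**Figure D1:**
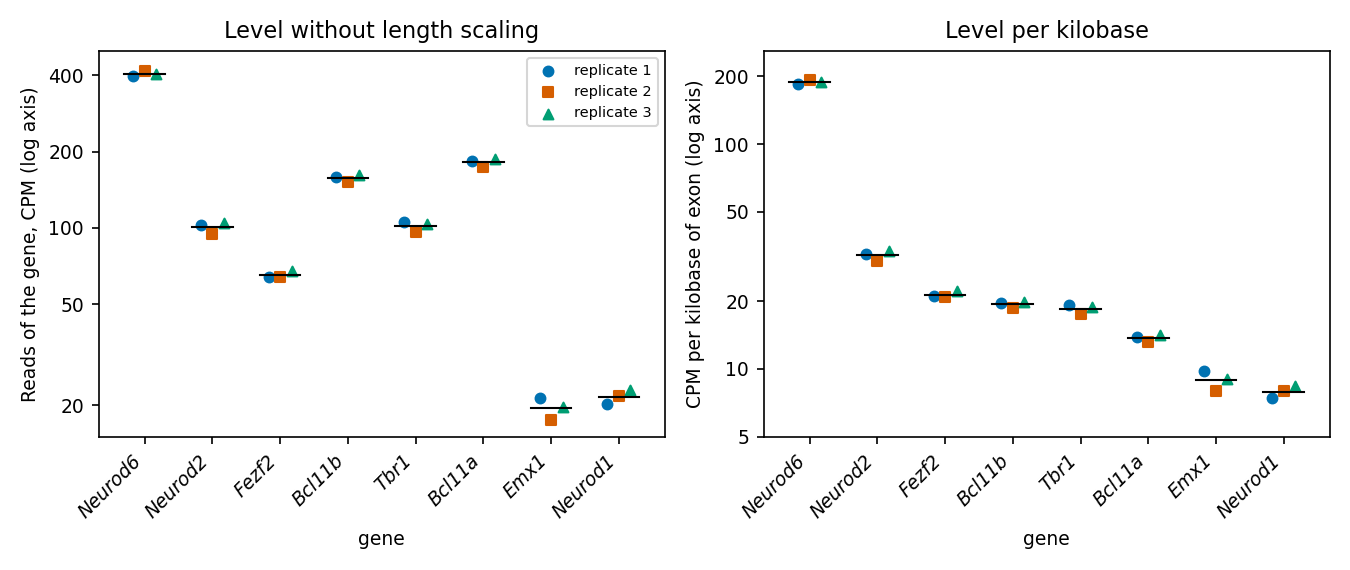
Recovered reads of the 8 genes in each library, as CPM (left) and as CPM per kilobase of annotated exon (right), both on log axes; points are libraries and black lines their means. Neurod6 is highest on both scales, and the 3 libraries of a gene lie close together relative to the distance between most genes.

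Per kilobase of all exons the order was Neurod6, Neurod2, Fezf2, Bcl11b, Tbr1, Bcl11a, Emx1 and Neurod1. The largest step separated Neurod6 from Neurod2. Neurod2 exceeded Fezf2 by 0.57 ± 0.06 and Tbr1 exceeded Bcl11a by 0.42 ± 0.04 on the log2 scale in reads. Bcl11a exceeded Emx1 by 0.60 ± 0.10. Fezf2, Bcl11b and Tbr1 formed a narrow group with steps of 0.14 ± 0.04 and 0.07 ± 0.04. Emx1 over Neurod1, at 0.16 ± 0.19, did not exceed the spread between libraries in reads, although it did in the deposited values (0.16 ± 0.03), which pull the libraries together. On exon bases not shared with another gene Neurod1 lay at 3.26 and Emx1 at 3.24 on the log2 scale of deposited levels.

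Neurod6 stayed first under each length scaling, whereas the middle of the order did not hold. Bcl11a ranked 2 without length scaling, 6 per kilobase of all exons and 3 per kilobase of the longest transcript. Neurod2 ranked 5 without length scaling and 2 on both scales per kilobase. Emx1 and Neurod1 took the last 2 ranks on each of the 3 scales.

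**Figure D2:**
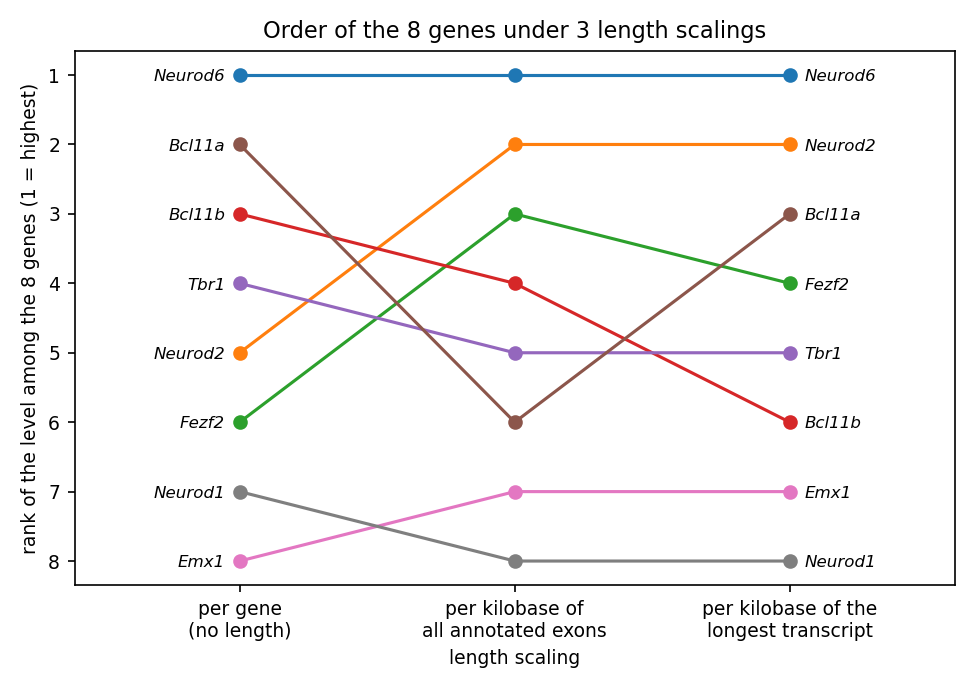
Rank of the level of each gene among the 8 (1 is the highest) without length scaling, per kilobase of all annotated exons and per kilobase of the longest transcript, from deposited values; lines join the same gene. Neurod6 stays at rank 1, while Bcl11a moves between ranks 2, 6 and 3.

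In each of the 14 gene pairs compared, the same gene was the higher one in 3 of 3 libraries. With 3 libraries an exact permutation test cannot give a p below 0.25, and every pair had that value, also after adjustment over the 14. Neurod2 exceeded the proneural gene Neurog2, which acts before it in dorsal progenitors, 21.5-fold per kilobase, with 128 reads for Neurog2. Tbr1 over Bcl11b was −0.07 ± 0.04 in reads and turned to 0.39 when the longest transcript was used.

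Dimer partners of the NeuroD factors were present. All 3 E protein genes were detected, with Tcf4 at 359 ± 11.8, Tcf12 at 99.2 ± 4.66 and Tcf3 at 50.8 ± 1.34 CPM. Per kilobase each lay below Neurod6 and Neurod2, with Tcf4 at 13.1 ± 0.43, Tcf3 at 12.6 ± 0.33 and Tcf12 at 6.39 ± 0.30 CPM. This order depended on the length scaling. Without it, Tcf4 lay above Neurod2 (101 ± 5.37 CPM) and Tcf12 beside it. All 8 genes of a list of Id, Hes and Hey factors were detected too. Id proteins and most Hes and Hey proteins oppose neuronal bHLH factors, whereas Hes6 is known to counter Hes1 and favour neuronal differentiation. Id2 led at 40.9 ± 2.39 CPM per kilobase, above Neurod2, followed by Hes6 at 17.98 ± 1.23 and Id4 at 11.3 ± 0.11; Id3 was lowest at 2.18 ± 0.35.

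Other bHLH genes of neuronal differentiation were mostly low. Of 11, 4 were detected, among them Bhlhe22, a factor of postmitotic projection neurons, at 44.3 ± 1.59 CPM per kilobase, Neurog2 at 1.02 ± 0.20 and Nhlh2 at 0.86 ± 0.10. Neurod4, the remaining NeuroD gene, had 3 reads in all, Neurog3 had 1, and Neurog1 and Atoh1 had none. At this depth a gene without reads could be present at up to 0.159 to 0.161 CPM in a library, the value of 3 reads, which covers counting error only. Of 11 dorsal progenitor factors 10 were detected, led by Sox2 at 47.7 ± 2.47 CPM per kilobase, which glia also make, Insm1 at 4.25 ± 0.47 and Hes1 at 4.15 ± 0.23.

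The 8 genes were set beside other transcription factors of projection neurons. All 24 of these were detected, with a median deposited level of 3.37 on the log2 scale per kilobase, against 4.28 for the 8 genes and −0.96 for all genes with a length. Lmo4 (102 ± 1.82 CPM per kilobase), Zbtb18 (88.1 ± 0.72) and Nfix (44.7 ± 1.99) led, all below Neurod6, and Rorb was lowest at 1.69 ± 0.22. Since the 8 genes were chosen with levels known, the higher median is a description.

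Nearest to 6 of the 8 genes by mean deposited level per kilobase, among 80 other factors, stood Lmo4 (Neurod6), Lhx2 (Neurod2), Dlx1 (Fezf2), Tle4 (Tbr1), Pou3f1 (Emx1) and Hey1 (Neurod1). The distance was −0.89 on the log2 scale for Lmo4, so that Neurod6 had no close neighbour per kilobase. It was −0.04 for Lhx2, −0.04 for Dlx1, 0.04 for Tle4, 0.14 for Pou3f1 and −0.01 for Hey1. Without length scaling, Lmo4 lay at 359 ± 6.43 CPM and Neurod6 at 406 ± 10.2 CPM. With 3 replicates of 1 group no likeness of pattern across conditions could be computed.

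Most interneuron factors lay below the 8 genes. All 16 were detected, at a median of 2.75 on the log2 scale per kilobase, and 11 of them lay below Neurod1, the lowest of the 8 genes. Dlx1 (20.8 ± 0.24 CPM per kilobase) and Lhx6 (20.1 ± 0.76), factors of interneurons from the ventral forebrain, stood beside Fezf2, Bcl11b and Tbr1, and Gsx2 was lowest at 0.93 ± 0.09. Neurod6 exceeded Dlx1 8.88-fold per kilobase (log2 ratio 3.15), and by 1.85 on the log2 scale without length scaling. Neurod2 exceeded Lhx6 1.58-fold per kilobase (log2 ratio 0.66), but by only 0.21 on the log2 scale with the longest transcript and 0.06 without length scaling. In such bulk samples fewer cells of a type and less RNA per cell cannot be told apart.

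**Figure D3:**
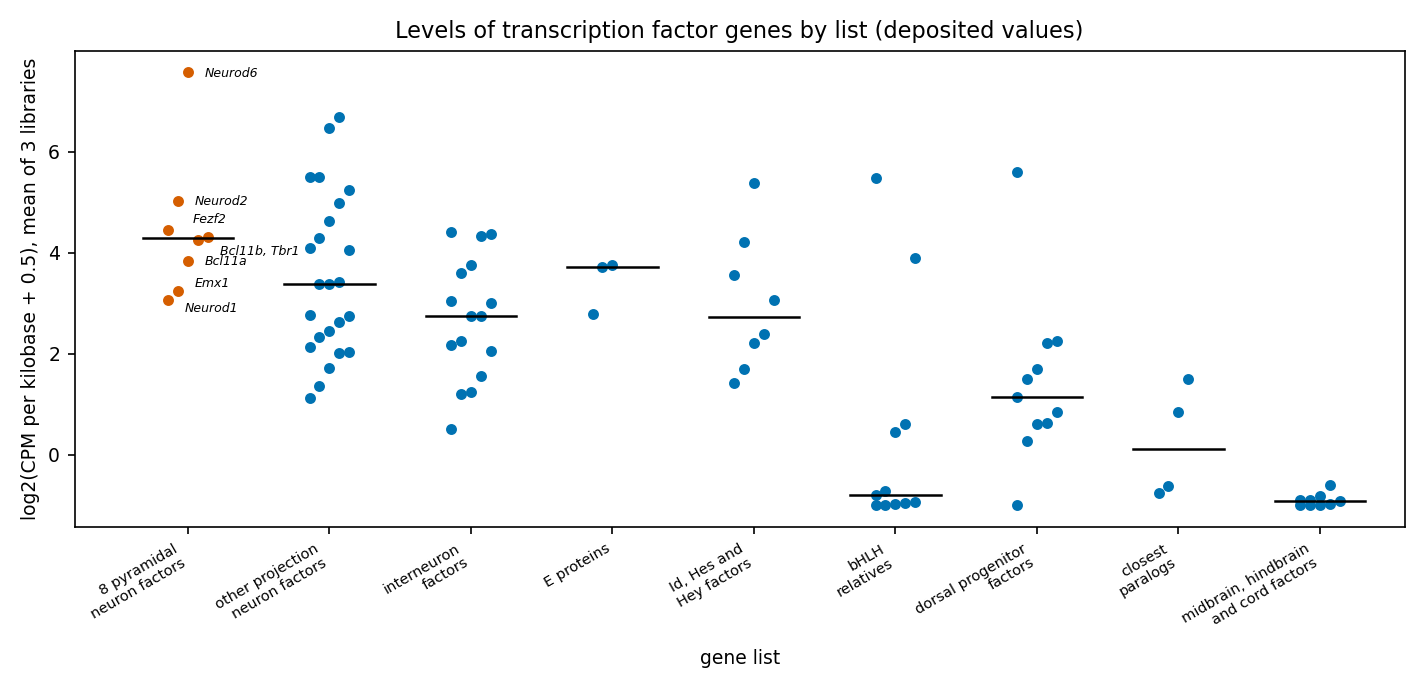
Mean deposited level per kilobase over 3 libraries, as log2 with 0.5 added, of the 8 genes (orange) and of 8 lists of other transcription factors (blue); each point is a gene and black lines are list medians. The 8 genes span 3.07 to 7.56, 11 of the 16 interneuron factors lie below that range and the others in its lower part, and factors of midbrain, hindbrain and cord lie at the bottom.

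Genes reported as targets or partners of Tbr1 and Fezf2 were all detected, 5 of 5. Cask, a kinase-like protein that binds Tbr1, lay at 32.8 ± 0.91 CPM per kilobase, Grin2b, which encodes an NMDA receptor subunit, at 14.4 ± 0.53, Reln, which encodes the secreted protein reelin, at 13.0 ± 0.31 and Auts2 at 5.52 ± 0.31. The fifth is Bcl11b, which acts downstream of Fezf2. The glutamate transporter genes Slc17a7 (22.4 ± 1.57) and Slc17a6 (12.4 ± 0.57) can be set beside Fezf2 at 21.4 ± 0.72 and Bcl11a at 13.8 ± 0.53 CPM per kilobase, while Slc17a8 had 72 reads in all. Nrgn (120 ± 12.2), Gria1 (41.2 ± 1.98) and Camk2a (25.6 ± 0.48), also listed as glutamatergic, lay above Slc17a7. So did the GABA neuron genes Sst (376 ± 13.6), Gad1 (44.5 ± 0.46), Gad2 (27.1 ± 0.28) and Slc32a1 (26.6 ± 1.17), while Vip and Pvalb had 85 and 25 reads.

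Several of the 8 genes are also made by other cells, so markers of those cells were read beside them. Of 6 Cajal-Retzius genes 4 were detected. Reln had 17347 reads, Calb2 1951, Trp73, the most specific, 213, and Ebf3 169. Lhx1 and Lhx5, not detected, had 48 and 36. Of 4 dentate granule genes Prox1 (1214 reads) and Calb1 (3446 reads) were detected, and Dsp and C1ql2 had 38 and 49 reads. Factors of midbrain, hindbrain and cord were detected in 0 of 9 genes, with Hoxa5 without reads and Pou4f1 highest at 43 reads. Pan-neuronal genes were detected in 8 of 8, GABA neuron genes in 5 of 6, astrocyte genes in 9 of 9, oligodendrocyte precursor genes in 5 of 5, mature oligodendrocyte genes in 3 of 6, microglial genes in 0 of 8, endothelial genes in 1 of 6 and mural or fibroblast genes in 3 of 6. RNA of neuronal, astrocyte and oligodendrocyte precursor genes was thus present, and which cells the reads of the 8 genes came from was not tested.

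Variation of the 8 genes between libraries given the same medium was small. After scaling by size factors, the highest library exceeded the lowest 1.06-fold for Neurod6 and Bcl11b, 1.07-fold for Fezf2, 1.08-fold for Bcl11a, 1.09-fold for Tbr1, 1.11-fold for Neurod2, 1.15-fold for Neurod1 and 1.21-fold for Emx1. By a chi-square test on recovered reads, 1 of the 8, Neurod6, varied beyond counting error (adjusted p = 0.025, Benjamini-Hochberg over 15131 genes), against 8.62% of all genes tested. Unadjusted, 5 of the 8 had p under 0.05 by that test. Shares of all genes by unadjusted p are not given, so such counts only describe these genes. The coefficient of variation of Neurod6 was 2.89%, with 1.15% from counting alone. Against a dispersion trend over genes 0 of the 8 passed by the same test, as did 0.33% of all genes, and 0 had an unadjusted p under 0.05.

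The call on Neurod6 was lost with total reads as size factors (adjusted p = 0.0746), without replicate 1 (0.66) and without replicate 2 (0.454), and kept without replicate 3 (0.0372). Without replicate 1, Neurod2 (0.0122) and Bcl11a (0.00923) passed instead, and without replicate 2 none of the 8 did. With size factors fitted in bins of GC content and transcript length, Bcl11a passed (0.0136) and Neurod6 did not (0.188). Of all genes tested, 8.82% were called with total reads as size factors and 4.70% with the bins. Leaving out replicate 1, 2 or 3, the share called was 7.83%, 2.20% or 5.49%.

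Replicate 2 was the lowest library for 5 of the 8 genes, Neurod2, Tbr1, Bcl11a, Bcl11b and Emx1, against 37% of all genes tested. Neurod6 was the one gene highest there, against 34.3% of all genes. The deviations of replicate 2 from a gene's mean were −0.15 for Emx1, −0.09 for Neurod2, −0.08 for Tbr1, −0.06 for Bcl11a, −0.05 for Bcl11b and 0.04 for Neurod6 on the log2 scale of reads. For Fezf2 and Neurod1 they were −0.03 and 0.01. GC content of the longest transcript was highest for Emx1 (66.8%) and Neurod2 (58.7%) and lowest for Neurod6 (41.9%). Between them lay Fezf2 (55.9%), Tbr1 (51.9%), Bcl11b (50.1%), Bcl11a (44.8%) and Neurod1 (43.6%). The part of GC content in these deviations was not tested. With size factors in GC and length bins the deviations became −0.09 for Emx1, −0.02 for Neurod2, 0.01 for Neurod6, −0.07 for Tbr1, −0.08 for Bcl11a and −0.04 for Bcl11b. For Fezf2 and Neurod1 they became 0.01 and −0.02. Replicate 2 was then lowest for 5 of the 8 genes, but the share of all genes under these size factors is not given. Mitochondrially encoded genes held 7.13%, 8.25% and 7.61% of reads in replicates 1, 2 and 3, and their part in these deviations was not tested. Of the 16 interneuron factors 11 were lowest in replicate 2, with a median deviation of −0.06 over the list, against −0.05 for the 8 genes. Their summed level was 629, 599.7 and 636 CPM in replicates 1, 2 and 3, and that of the 8 genes was 1052, 1036 and 1073 CPM. Cajal-Retzius genes, whose neurons also make Tbr1, were lowest in replicate 2 in 5 of 6, though their summed level was 346, 347 and 359 CPM. The part of either list in the result for the 8 genes was not tested.

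**Figure D4:**
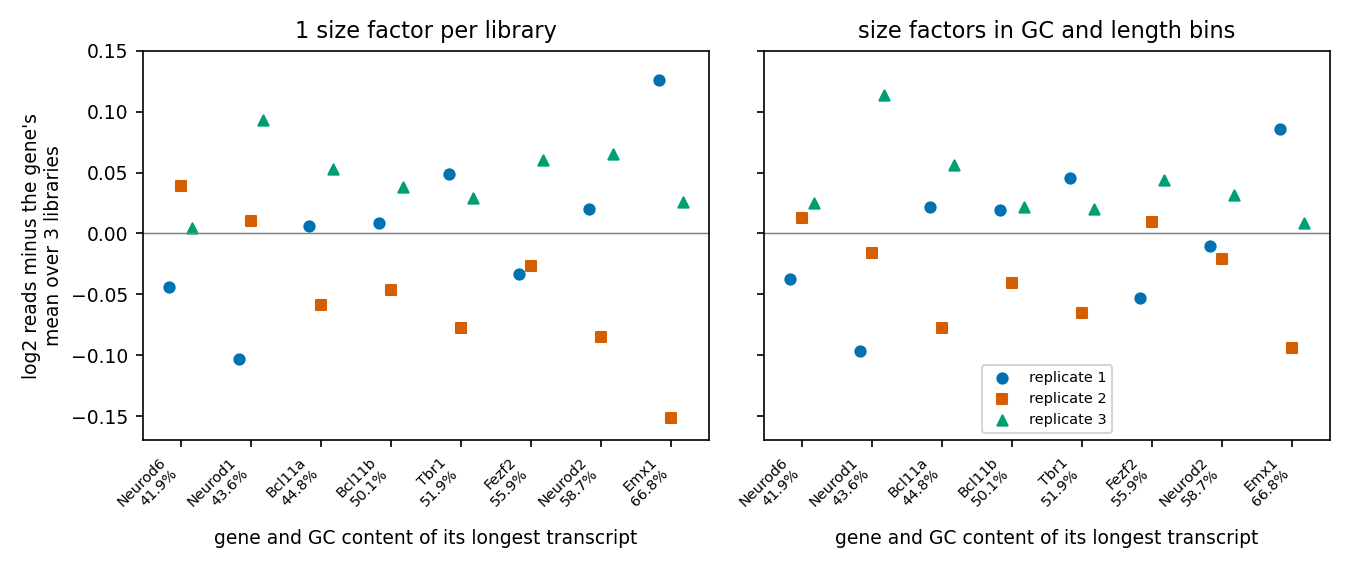
Log2 reads of each gene in each library minus the gene's mean over the 3 libraries, with 1 size factor per library (left) and with size factors in bins of GC content and transcript length (right); genes are ordered by the GC content of their longest transcript. In replicate 2, Emx1 lies at −0.15 and Neurod6 at 0.04 on the left, and at −0.09 and 0.01 on the right.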

How the data were processed

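RNA of 3 libraries of mouse hippocampal neurons was sequenced. For each gene and library the file deposited by the authors gives a log2 value, without a header. Alignment and counting on GRCm38 used HISAT2 and featureCounts, beside FastQC and DESeq2, per the submitters' processing notes. No label states their settings or whether counting used strand. The log2 values follow the shape of a regularized log, which pulls the libraries of a gene together. Whole reads were therefore recovered by inverting that penalised fit (6 parameters); 99.9% of 77088 values came within 0.1 of a whole read (20% by chance), members within 0.027. The recovery was known from earlier work on these data and is an alternative to the deposited values. CPM means reads per 1000000 recovered reads; levels per kilobase used the union of annotated exons (GENCODE M21, GRCm38). Logarithms of levels used a pseudocount of 0.5. The 14 gene pairs were compared by an exact permutation test (sign flips over libraries, two-sided), with Benjamini-Hochberg adjustment over the pairs. Variation between libraries was tested with a Pearson chi-square on recovered reads of the 15131 genes averaging at least 10 reads, adjusted over all of them. It was repeated against a dispersion trend over genes and with size factors in 8 GC by 4 length bins. Both the test and the recovery were tested on simulated data. Alternatives covered length scaling, pseudocount, detection threshold, size factors, values used and leaving out each library. Members, lists, pairs and tests were chosen with earlier results of these data known. Named genes were the members, both genes of each pair, the highest 3 and the lowest of each transcription factor list, list genes without reads, and the factor nearest in level to each member. A few genes that these rules would name are not reported here. Marker lists of cell types are given by their counts and a few of their genes. Python 3.11.15, numpy 2.4.6, scipy 1.17.1 and pandas 2.3.3 were used.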

Additional observations from a re-analysis of the deposited data

How the results depend on the processing

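The span from Neurod6 to Neurod1, 4.49 on the log2 scale per kilobase, was 4.20 without division by length, 3.91 with a pseudocount of 5, 4.56 with a pseudocount of 0.1 and 4.30 on exon bases not shared with another gene. Bcl11b over Bcl11a turned from 0.48 to −0.20 without division by length and to −0.63 per kilobase of the longest transcript. Tbr1 over Bcl11b turned from −0.07 to 0.39 per kilobase of the longest transcript. Without division by length, Tbr1 over Fezf2 turned from −0.21 to 0.63 and Bcl11b over Fezf2 from −0.14 to 1.26. These turns follow from the lengths used. The remaining 110 of 115 alternative pair ratios kept their direction, but some moved by more than 1.5-fold. Without division by length the log2 ratio was 4.12 for Tbr1 over Eomes, 6.49 for Fezf2 over Fezf1, 5.19 for Neurod2 over Neurog2, 1.85 for Neurod6 over Dlx1 and 0.06 for Neurod2 over Lhx6. With a pseudocount of 5 it was 1.90 for Tbr1 over Eomes, 0.92 for Emx1 over Emx2, 2.37 for Fezf2 over Fezf1 and 2.62 for Neurod2 over Neurog2, and with a pseudocount of 0.1 it was 6.78 for Fezf2 over Fezf1. The number of the 8 genes that varied beyond counting error, 1 with all libraries, was 0 with total reads as size factors, 0 against the dispersion trend and 0 to 2 when 1 library was left out. Of all genes, 8.62% were called with all libraries, 8.82% with total reads, 0.33% against the trend and 2.20% to 7.83% with 1 library left out. The cause was not tested. The scalings by exon bases not shared and by GC and length were added after seeing the data. No paired analysis was possible because all libraries belonged to 1 group. Depth limited Emx1 and Neurod1 most, with counting error of about 5.23% and 4.96% per library.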
